A study of Mus musculus with 6 samples.

Results

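The E2F transcription factors and the Rb family of pocket proteins decide together whether a cell enters S phase, and 10 of their genes were followed here among the 20325 genes of the deposited table. They were chosen by symbol, all 10 were found, and all 10 passed the filter on low values, a mean of at least 10 over the 6 libraries. They are the activators E2f1, E2f2 and E2f3, the canonical repressors E2f4 and E2f5, the atypical repressors E2f7 and E2f8, and the pocket protein genes Rb1, Rbl1 and Rbl2. In build GRCm38.p6 E2f1 and Rbl1 lie on chromosome 2, E2f5 on 3, E2f2 on 4, E2f8 on 7, E2f4 and Rbl2 on 8, E2f7 on 10, E2f3 on 13 and Rb1 on 14. RNA was sequenced from C3H10T1/2 cells, an established line of multipotent mesenchymal cells from C3H mouse embryos, cultured in DMEM with 10% fetal bovine serum and used at passage 10 to 15. The knockdown group of 3 libraries came from parental cells given small interfering RNAs against Ring1a and Ring1b, and the control group of 3 from parental cells given a scrambled small interfering RNA. Ring1 and Rnf2, the genes of Ring1a and Ring1b, encode the ubiquitin ligases of Polycomb repressive complex 1. The sources used here give neither the siRNA sequences nor the time between transfection and harvest.

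Activator E2Fs, paired with a DP partner, bind promoters of genes for DNA synthesis and switch them on. In resting cells pocket proteins hold them silent, until cyclin-dependent kinases phosphorylate the pocket proteins and release the E2Fs. E2F4 and E2F5 work mainly with the pocket proteins encoded by Rbl1 and Rbl2, which join the MuvB proteins in a complex that silences cell cycle genes in resting cells. E2F7 and E2F8 bind DNA without a DP partner or a pocket protein and repress the same promoters later in the cycle. E2f1, E2f2, E2f7, E2f8 and Rbl1 are themselves known as E2F targets, while Rbl2 is known for its high level in resting cells.

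The promoters show how far the textbook E2F element can be read in the genes that follow. Promoter windows from RefSeq (build GRCm38.p6, 250 bases before to 50 after an annotated start) were at hand for 7 of the 10 genes, in 9 windows; E2f4, E2f5 and Rb1 were not among them. The E2F element was searched as TTTCCCGC, TTTCGCGC, TTTGGCGC and TTTGCCGC, and the CHR element, known from promoters of mitotic genes, as TTTGAA. Both strands were read, and no match in these windows overlapped another. An E2F match was found in 4 of the 9 windows, against 2.26% of all 32851 windows of that length, and a CHR match in 4 of 9, against 17.9%. Shown are an E2F match in Rbl1 and E2f7 and a CHR match in E2f8, which rose only in the fits without knockdown replicate 2 or with library weights, an E2F match in E2f3, which did not rise in any fit, and the CHR match of Rbl2. Capitals mark the match, 5′ to 3′ on the strand of the gene, and each stretch ends before the start site.
Rbl1, chr2:157204535-157204598, minus strand, E2F match from base -18: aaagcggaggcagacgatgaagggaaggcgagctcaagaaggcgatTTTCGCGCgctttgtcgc
E2f7, chr10:110745195-110745294, plus strand, E2F match in reverse from base -198: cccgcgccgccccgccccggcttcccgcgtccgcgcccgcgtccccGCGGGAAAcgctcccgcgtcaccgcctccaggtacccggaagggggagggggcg
E2f3, chr13:29986064-29986120, minus strand, E2F match in reverse from base -11: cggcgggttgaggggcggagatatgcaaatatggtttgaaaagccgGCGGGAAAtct
E2f8, chr7:48881597-48881662, minus strand, CHR match in reverse from base -20: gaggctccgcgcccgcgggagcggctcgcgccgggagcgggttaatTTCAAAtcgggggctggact
Rbl2, chr8:91069810-91069907, plus strand, CHR match in reverse from base -201: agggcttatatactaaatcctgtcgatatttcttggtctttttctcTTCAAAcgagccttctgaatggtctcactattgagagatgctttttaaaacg
The stretch of E2f3 also holds a CHR match, TTTGAA from base -23, left in lower case. The fourth E2F match lay in E2f2, TTTGGCGC, 39 bases after its upstream start. The fourth CHR match, TTTGAA from base -31, lay in the other E2f2 window, whose start lies inside the gene. The start given for E2f1 lies inside the gene and that of E2f8 lies within its outer edge, so these windows do not cover the outermost start. A match here is a description of letters and not a measured binding site.

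Every level below is in the deposited unit, an estimated read count per gene after median normalization, and a log2 fold change is knockdown minus control on log2(value + 1). Rnf2 stood at 129, 76.5 and 152 in knockdown replicates 1, 2 and 3, against 815, 829 and 799 in the controls (log2 fold change -2.82, SE 0.28, limma adjusted p = 0.00946). Values of Ring1 were 162, 268 and 186 in the knockdowns, against 336, 386 and 374 in the controls, a difference that missed the threshold (log2 fold change -0.86, SE 0.23, limma adjusted p = 0.104). Ring1 did pass in the fit that left out knockdown replicate 2 (-1.06, SE 0.10, limma adjusted p = 3.86e-06), and Rnf2 missed the threshold without any 1 control or without knockdown replicate 1 (limma adjusted p = 0.0646 to 0.0852). Depth differed between libraries. Dividing the deposited totals by the value of 1 read gave about 23200000, 4580000 and 18500000 estimated reads in knockdown replicates 1, 2 and 3 and 51800000, 5450000 and 15100000 in the controls. Knockdown replicate 2 was unlike the rest. Across genes, Pearson correlations of log2 values were 0.821 to 0.867 for its 5 pairs, against 0.944 to 0.993 for the other 10 pairs. Genes of ribosomal proteins took 20.7% of its total, against 5.08 to 5.82% elsewhere. Calls of the 10 genes are therefore given with and without it. All 10 markers of mesenchymal progenitors were expressed in these cells, with sums of 355699 to 633373 in the knockdowns and 528286 to 577899 in the controls. Single markers differed. Every knockdown lay below all controls in Col3a1, Vim, Pdgfra and Pdgfrb, as in 23.7% of all tested genes. In Thy1 and Twist1 every knockdown lay above all controls, as in 20.5% of all tested genes. The groups overlapped in Col1a1, Col1a2, Prrx1 and Fn1. Of the markers of other cell types, the 4 epithelial ones summed to 28.4 to 51.0 in the knockdowns and 15.0 to 34.3 in the controls, and the 4 leukocyte ones to 8.53 to 17.0 in the knockdowns and 9.94 to 13.7 in the controls. The 4 endothelial ones summed to 106 to 156 in the knockdowns and 87.7 to 107 in the controls. The 4 neuronal ones summed to 157 to 197 in the knockdowns and 63.2 to 77.7 in the controls, groups that did not overlap. Nearly all of that was Tubb3, at 197, 149 and 195 in the knockdowns and 72.5, 77.7 and 63.2 in the controls, while Snap25 was at 0 in all 6 libraries. Their part in the results below was not tested.

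With all 6 libraries, none of the 10 E2F and Rb genes passed limma at a Benjamini-Hochberg adjusted p of 0.05: 0 rose, 0 fell, and 1, E2f2, had an unadjusted p under 0.05. Among all 12085 genes tested, 4.98% passed, and 2473 had an unadjusted p under 0.05. The median log2 fold change of the 10 was 0.25, beside 0.0057 over all genes. Without knockdown replicate 2, 6 of the 10 rose (E2f1, E2f2, E2f7, E2f8, Rb1 and Rbl1) and Rbl2 fell, while E2f3, E2f4 and E2f5 did not pass. In that fit 49.9% of all genes were called, 23.8% higher and 26.1% lower, so a call there is a common event, and the median of the 10 was 0.43 beside -0.021 over all genes. Every knockdown lay above all controls in 7 of the 10 genes in that fit (32.1% of all genes) and below them in 2 (35.8%), together 9 of 10 against 67.9%. A fit with weights per library, in which 72.9% of all genes were called (34.9% higher and 38% lower), called 7 of the 10 higher and 2 lower. In bulk RNA, fewer cells of a type and less RNA per cell cannot be told apart. Nothing in the labels names separate cultures for the replicates, and the p-values cover the spread between these libraries alone, which may be technical. For single values, groups of 3 allow no exact permutation p below 0.1.

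**Figure D1:**
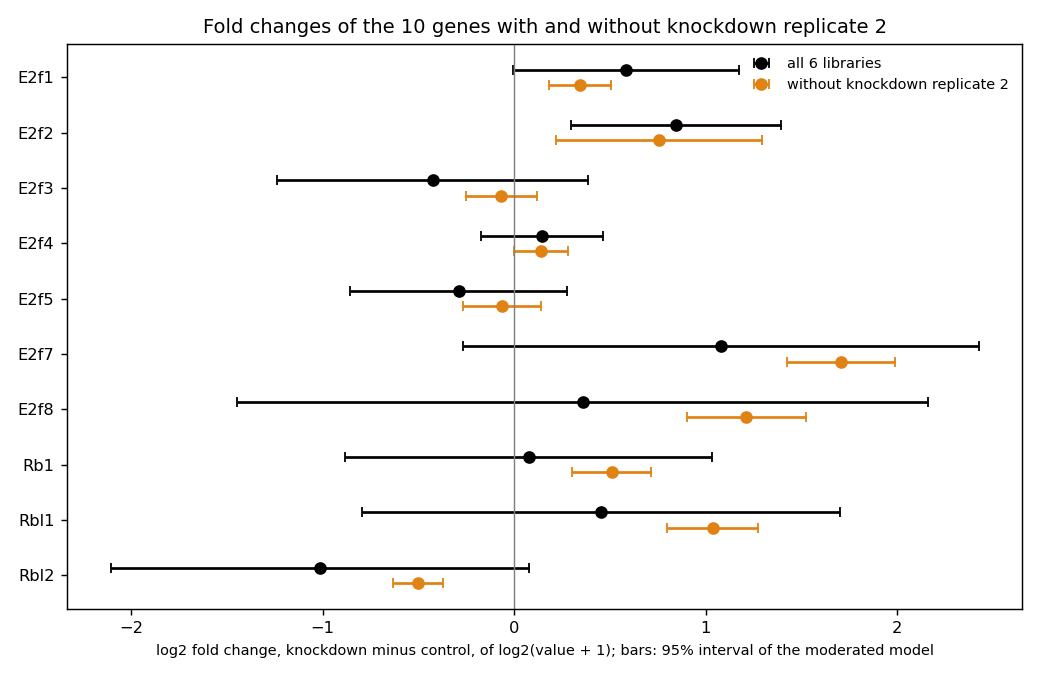
Log2 fold change (x axis, knockdown minus control, log2(value + 1)) of each of the 10 genes, with bars for the 95% interval of limma's moderated model. Black points use all 6 libraries and orange points leave out knockdown replicate 2. Without it the intervals of E2f7 and E2f8 are narrower and centred on 1.71 and 1.21, and that of Rbl2 lies left of 0, around -0.50.

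The activators E2f1 and E2f2 were higher in every knockdown library than in every control, by modest amounts, and E2f3 was not. E2f1, the best known activator, stood at 879, 1413 and 841 in knockdown replicates 1, 2 and 3, against 740, 631 and 664 in the controls. The groups did not overlap, and replicate 2 was the highest of all 6 libraries. The log2 fold change was 0.58 with all libraries (SE 0.24, limma adjusted p = 0.248) and 0.34 without replicate 2 (SE 0.074, limma adjusted p = 0.00214). E2f2, an activator of low abundance here, stood at 33.4, 42.5 and 37.0 in the knockdowns, against 20.7, 22.6 and 18.1 in the controls. All knockdowns exceeded all controls, although the value in replicate 2 rests on an estimated 10 reads, with a 95% Poisson interval of 20.4 to 78.2 that covers counting error only. Control replicate 2 was shallow too, with 1 read worth 2.51 units. E2f2 averaged 37.6 ± 4.61 in the knockdowns and 20.4 ± 2.26 in the controls (SD, n = 3 each), a ratio of 1.84. The log2 fold change of 0.85 missed the threshold (SE 0.22, limma adjusted p = 0.103). E2f2 passed without the trend and robust options (limma adjusted p = 0.0484) and without replicate 2 (0.76, SE 0.25, limma adjusted p = 0.0234).

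E2f3, the third activator, which is transcribed from 2 starts, stood at 375, 191 and 435 in the knockdowns, against 407, 449 and 416 in the controls. Replicate 2 was lowest, replicate 1 lay just under the controls and replicate 3 lay within them. Without replicate 2 its log2 fold change was -0.066, with a 95% interval of -0.25 to 0.12 (limma adjusted p = 0.549), and with library weights it fell, by 0.16 (limma adjusted p = 0.00654). The summed values of the activators, which mostly follow E2f1 and E2f3, were 1288, 1647 and 1313 in the knockdowns and 1168, 1102 and 1098 in the controls (log2 ratio 0.33, exact permutation p = 0.1, two-sided, the smallest this design allows), and without replicate 2 the log2 ratio was 0.21.

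The canonical repressors differed little between the groups. E2f4, the most abundant E2F of resting cells, stood at 724, 723 and 701 in the knockdowns, against 671, 624 and 646 in the controls. Knockdowns exceeded controls in all libraries, including replicate 2, but the step was small (log2 fold change 0.15, 95% interval -0.17 to 0.47, limma adjusted p = 0.51) and stayed below the threshold without replicate 2 (0.14, SE 0.063, limma adjusted p = 0.0864). It vanished when every library was scaled to the same total, to 0.0045 (limma adjusted p = 0.992). E2f5, the partner repressor, stood at 203, 128 and 206 in the knockdowns, against 219, 215 and 207 in the controls. All knockdowns lay below all controls, yet replicate 3 did so by less than 1 unit. Its log2 fold change was -0.29 (SE 0.23, limma adjusted p = 0.48) with all libraries and -0.063 (95% interval -0.27 to 0.14, limma adjusted p = 0.608) without replicate 2. Non-overlap of this kind was common: every knockdown lay above all controls in 3 of the 10 genes (E2f1, E2f2 and E2f4), where 20.5% of all tested genes did so, and below them in 2 (E2f5 and Rbl2), where 23.7% did so. Together that was 5 of 10 genes against 44.3% of all.

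The atypical repressors E2f7 and E2f8 showed the largest differences of the family in knockdown replicates 1 and 3, and replicate 2 did not share them. E2f7 stood at 340, 93.5 and 354 in knockdown replicates 1, 2 and 3, against 117, 113 and 89.4 in the controls. Replicates 1 and 3 were 3.27-fold the control mean, while replicate 2 lay within the control range. Its log2 fold change was 1.08 (SE 0.55, limma adjusted p = 0.327) with all libraries and 1.71 (SE 0.13, limma adjusted p = 7.37e-07) without replicate 2. E2f8 stood at 283, 46.8 and 280 in the knockdowns, against 143, 123 and 100 in the controls. Replicates 1 and 3 averaged 2.30-fold the control mean, and replicate 2 was the lowest of all 6 libraries. That library held an estimated 11 reads of E2f8 and 22 of E2f7, with 95% Poisson intervals of 23.3 to 83.7 and 58.6 to 142 in deposited units. The interval of E2f8 lies wholly below its lowest control value. The log2 fold change of E2f8 was 0.36 (SE 0.73, limma adjusted p = 0.764) with all libraries and 1.21 (SE 0.14, limma adjusted p = 2.52e-05) without replicate 2. The summed values of the pair were 624, 140 and 634 in the knockdowns and 260, 236 and 190 in the controls (log2 ratio 0.75, exact permutation p = 0.4, two-sided), and without replicate 2 the log2 ratio was 1.47.

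**Figure D2:**
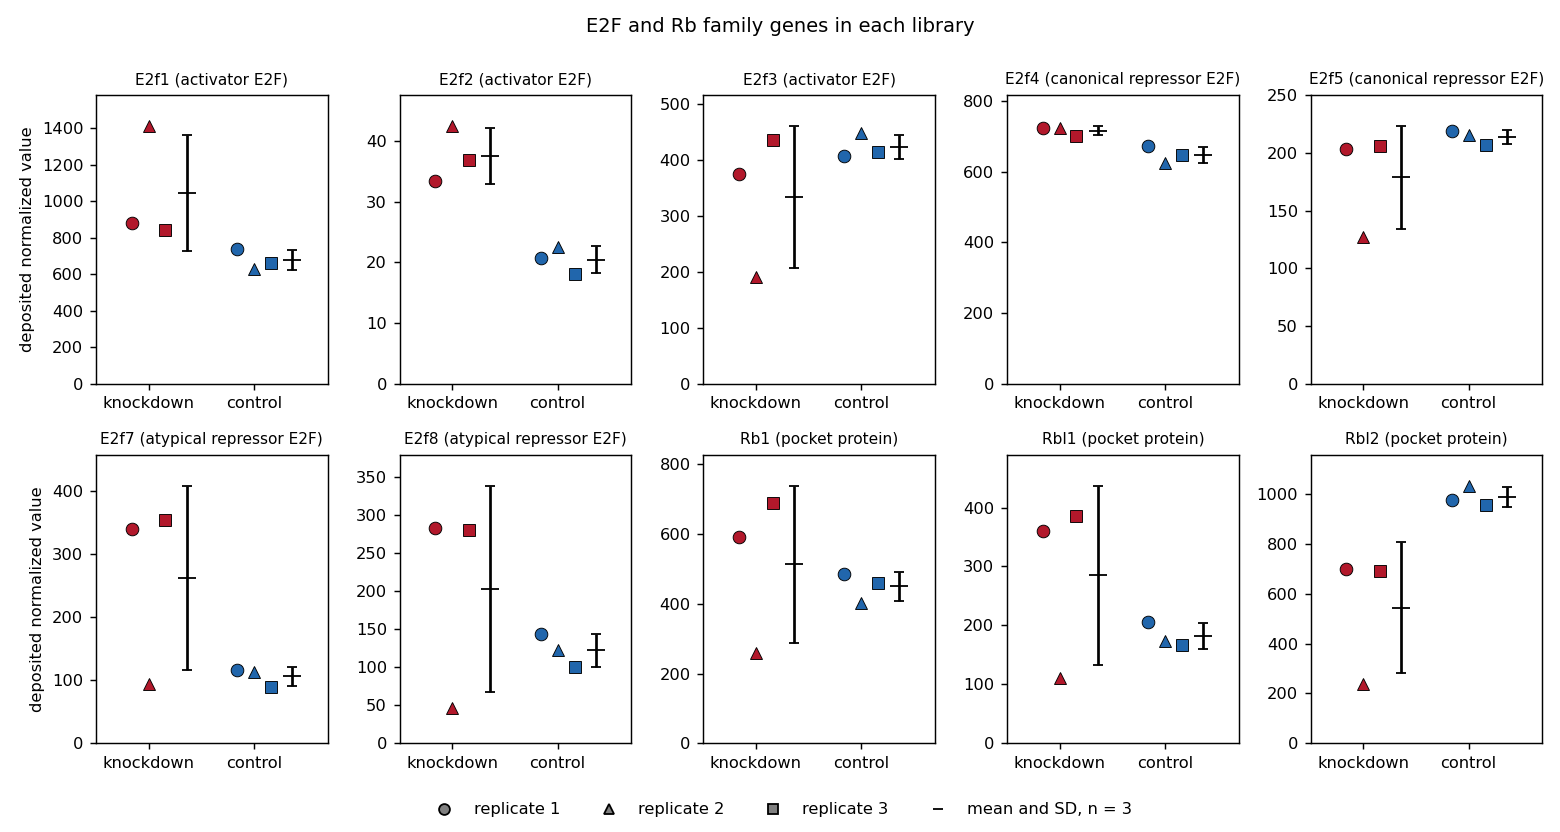
Deposited normalized value (y axis from 0, a scale of its own for each gene) of each of the 10 genes in the knockdown and control libraries, with a marker shape for each replicate and the mean and SD of each group beside it (n = 3). In E2f7, E2f8, Rb1 and Rbl1 knockdown replicates 1 and 3 lie above all controls and replicate 2 does not, while in Rbl2 all 3 knockdowns lie below all controls.

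Among the pocket proteins, Rbl2 was lower in all 3 knockdown libraries, and Rbl1 and Rb1 were higher in 2 of the 3. Rbl2, which encodes p130, the pocket protein typical of resting cells, stood at 700, 240 and 693 in the knockdowns, against 977, 1034 and 955 in the controls. No knockdown reached the lowest control. Its log2 fold change was -1.02 (SE 0.44, limma adjusted p = 0.271) with all libraries and -0.50 (SE 0.060, limma adjusted p = 2.80e-05) without replicate 2. Rbl1, which encodes p107, the pocket protein that rises in cycling cells, stood at 360, 111 and 386 in the knockdowns, against 207, 173 and 166 in the controls. Replicates 1 and 3 were 2.05-fold the control mean and replicate 2 lay below all controls. Its log2 fold change was 0.46 (SE 0.51, limma adjusted p = 0.582) with all libraries and 1.04 (SE 0.11, limma adjusted p = 1.05e-05) without replicate 2.

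Rb1, the retinoblastoma gene itself, stood at 593, 259 and 689 in the knockdowns, against 486, 403 and 461 in the controls. Its pattern over the libraries was that of Rbl1 with smaller steps, high in replicates 1 and 3 and low in replicate 2. The log2 fold change was 0.077 (SE 0.39, limma adjusted p = 0.906) with all libraries and 0.51 (SE 0.093, limma adjusted p = 0.000824) without replicate 2. With total scaling of all libraries, which moved the median of all genes to -0.14, the sign of Rb1 turned (-0.065, limma adjusted p = 0.946). The summed values of the pocket protein genes were 1653, 609 and 1767 in the knockdowns and 1669, 1611 and 1582 in the controls (log2 ratio -0.42, exact permutation p = 0.9, two-sided). Without replicate 2 that ratio was 0.077.

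The balance between the genes was read from ratios within a library, which do not depend on how libraries are scaled. These ratios were chosen after the values were seen. Rbl1 divided by Rbl2 was 0.513, 0.461 and 0.557 in the knockdowns, against 0.212, 0.167 and 0.174 in the controls. Replicate 2 stood with the other knockdowns here, and the ratio was 2.78-fold that of the controls (log2 difference 1.47, exact permutation p = 0.1, two-sided). The transcripts of both genes have almost the same length, 4862 and 4792 nt. Rb1 divided by Rbl2 was 0.846, 1.08 and 0.994 in the knockdowns, against 0.497, 0.390 and 0.483 in the controls, a 2.14-fold difference. E2f7 divided by Rbl2 was 0.486, 0.390 and 0.511 in the knockdowns, against 0.119, 0.109 and 0.0937 in the controls. All 9 ratios to Rbl2 were higher in every knockdown than in every control, but so were the ratios of 79.1% of tested genes to Rbl2, with a median log2 difference of 1.02, and 75.8% of those with the longest transcripts. Over all 45 pairs of the 10 genes the groups were apart in 23, the 9 pairs with Rbl2 among them. The same count was not taken over all gene pairs, so 23 of 45 has no background share beside it. The smallest exact permutation p after Benjamini-Hochberg adjustment was 0.196.

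**Figure D3:**
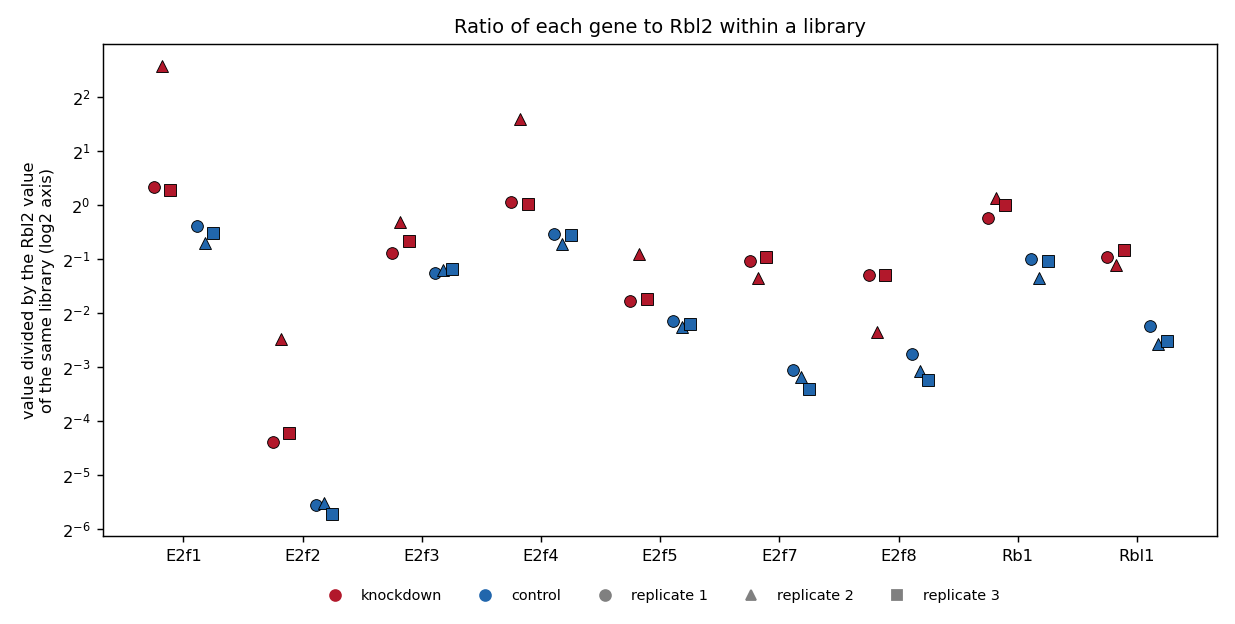
Value of each gene divided by the Rbl2 value of the same library (y axis, log2 scale), for knockdown (red) and control (blue) libraries, with a marker shape for each replicate. All 9 genes have higher ratios in the knockdowns, and for Rb1 and Rbl1 the 3 knockdowns lie close together, at 0.846 to 1.08 and 0.461 to 0.557.

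Transcript length moved with the difference between knockdown replicate 2 and the other knockdowns. Over 10893 tested genes with a length, replicate 2 was a median of 0.81 log2 units above the mean of replicates 1 and 3 in the shortest of 4 equal groups by length and 0.84 below it in the longest. The longest group starts at 3496.5 nt and holds 6 of the 10 genes, namely E2f2, E2f3, E2f8, Rb1, Rbl1 and Rbl2. E2f3, Rb1, Rbl1 and Rbl2 were 1.08 to 1.74 log2 units lower in replicate 2 than in replicates 1 and 3, on the low side of their group's median and within its 10th percentile of -1.74. E2f8, at -2.56, lay beyond it, and E2f7, at -1.88, lay beyond the 10th percentile of its own group, -1.44. E2f1 and E2f2 went the other way, at 0.72 and 0.27. A fit that removed a curve of each library's values on length, added after seeing the data, called 0 of the 10 genes. Of all 10893 genes it called 8.72%, 4.93% higher and 3.79% lower. At an unadjusted p under 0.05 it had 3 of the 10 genes and 2795 of all 10893. In it the log2 fold change was 1.15 for E2f7 (SE 0.43, limma adjusted p = 0.169), 0.69 for Rbl1 (SE 0.30, limma adjusted p = 0.221) and -0.79 for Rbl2 (SE 0.24, limma adjusted p = 0.105). Whether RNA quality in replicate 2 had a part in these values was not tested.

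**Figure D4:**
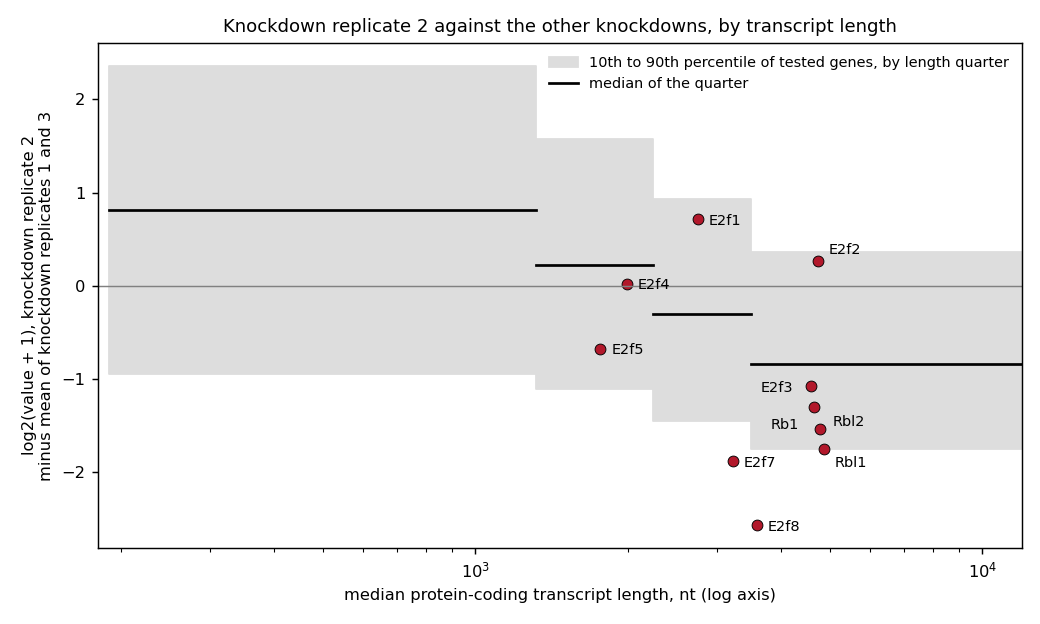
Difference of log2(value + 1) between knockdown replicate 2 and the mean of knockdown replicates 1 and 3 (y axis) against median transcript length in nt (log x axis), for the 10 genes (red). Grey bands span the 10th to 90th percentile of tested genes in each of the 4 length groups, and black lines give its median, which falls to -0.84 in the longest. E2f7 and E2f8 lie below their bands.

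Divided by transcript length, the family spanned a wide range of levels. Per kilobase of transcript, E2f1 had 381 ± 116 and E2f4 359 ± 6.42 in the knockdowns, and they had 247 ± 20.3 and 325 ± 11.9 in the controls (SD, n = 3 each). The high mean of E2f1 rests on knockdown replicate 2. Per kilobase E2f1 had 321, 515 and 307 in knockdown replicates 1, 2 and 3, against 363, 363 and 352 for E2f4, so that E2f4 was first in replicates 1 and 3 as in the controls. Rbl2 came next in both groups, with 114 ± 55.1 in the knockdowns and 206 ± 8.58 in the controls. E2f2 was lowest, at 7.94 ± 0.973 in the knockdowns and 4.31 ± 0.476 in the controls. In the controls the ranges of Rb1 and E2f3 overlapped, as did those of Rbl1, E2f8 and E2f7, and the other neighbours in that order did not. E2f7 ranked 6 of 10 in the knockdowns, at 81.7 ± 45.6, and 9 of 10 in the controls, at 33.1 ± 4.59 (SD, n = 3 each). In the knockdowns the ranges of all genes ranked 3 to 9 overlapped with their neighbours.

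The partners of these factors differed among themselves. E2f6, a repressor E2F that needs no pocket protein and sits in a variant Polycomb repressive complex 1 together with Ring1a and Ring1b, stood at 823, 616 and 860 in the knockdowns, against 248, 236 and 260 in the controls. It rose in all 3 libraries, replicate 2 included (log2 fold change 1.61, SE 0.18, limma adjusted p = 0.0116). It was the 1 of 3 genes on the list of DP partners and E2f6 that rose, and 0 fell. Of all tested genes 3.2% rose and 1.78% fell. Tfdp1 stood at 1425, 442 and 1437 in the knockdowns, against 1125, 1151 and 1080 in the controls. With total scaling E2f6 missed the threshold (limma adjusted p = 0.091), as it did in the fits without any 1 library other than knockdown replicate 2 (0.0563 to 0.0994). The MuvB core, Myb factors and Foxm1 switch on mitotic genes after the Rb family lets go. Of 8 genes for them, 1 rose and 0 fell, beside 3.2% and 1.78% of all tested genes. The gene that rose was Mybl2, a direct E2F target, at 278, 417 and 332 in the knockdowns, against 137, 148 and 145 in the controls (log2 fold change 1.23, SE 0.20, limma adjusted p = 0.0276).

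Upstream of the pocket proteins, 4 of 10 cyclin and kinase genes rose and 0 fell, beside 3.2% and 1.78% of all tested genes. They were Ccnd1 and Ccnd3, which encode D cyclins that start Rb phosphorylation, Ccne1, whose cyclin completes it, and Ccna2, the cyclin of S phase. Ccnd1 stood at 7158, 8664 and 7514 in the knockdowns, against 3132, 3375 and 3194 in the controls. Ccne1 stood at 361, 565 and 350 in the knockdowns, against 177, 155 and 148 in the controls. The log2 fold changes were 1.26 for Ccnd1 (SE 0.15, limma adjusted p = 0.0139) and 1.37 for Ccne1 (SE 0.23, limma adjusted p = 0.0341). They were 1.04 for Ccnd3 (SE 0.14, limma adjusted p = 0.0185) and 1.05 for Ccna2 (SE 0.19, limma adjusted p = 0.0368). With total scaling Ccnd3 and Ccna2 missed the threshold (limma adjusted p = 0.154 and 0.263), and with the length correction Ccnd3 did (0.140). Of the kinase inhibitor genes, 6 of 7 were abundant enough to test, 1 rose and 0 fell, beside the same shares of all genes. Cdkn1a, which encodes the inhibitor p21, stood at 3786, 5314 and 4067 in the knockdowns, against 2323, 2412 and 2324 in the controls (log2 fold change 0.88, SE 0.18, limma adjusted p = 0.0487). Cdkn1a lost its call with a pseudocount of 0.1, with no filter or a higher filter on low values, and with total scaling (limma adjusted p = 0.0503 to 0.0876). Without knockdown replicate 2, 2 of the 3 genes on the list of DP partners and E2f6 rose and 5 of the 8 on that of MuvB, Myb and Foxm1. In that fit 7 of the 10 cyclin and kinase genes rose and 1 fell, as did 3 and 1 of the 6 inhibitor genes, beside 23.8% of all genes that rose and 26.1% that fell.

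Genes known to be driven by E2F at the G1/S step rose in part. Of 36, 14 rose and 0 fell, where 3.2% of all tested genes rose and 1.78% fell, and the median log2 fold change was 1.15 beside 0.0057 over all genes. Mcm5, part of the replicative helicase, stood at 1337, 1369 and 1403 in the knockdowns, against 582, 463 and 466 in the controls (log2 fold change 1.45, SE 0.15, limma adjusted p = 0.00995). Uhrf1, which guides maintenance of DNA methylation, and Chaf1a, a subunit of chromatin assembly factor, had log2 fold changes of 1.36 and 1.47. With total scaling Mcm5 and Uhrf1 missed the threshold (limma adjusted p = 0.0569 and 0.091). Knockdown replicate 2 lay above all controls in 31 of the 36 G1/S genes, within them in 1 and below all of them in 4. Of all 12085 tested genes it lay above in 5609, within in 722 and below in 5754. In the 4 G1/S genes where it lay below, as in E2f8, Rb1 and Rbl1, replicates 1 and 3 lay above all controls. Among all 12085 tested genes 1152 had that pattern. Of 31 genes of G2 and mitosis, 16 rose and 0 fell, with a median of 1.27. Aurka, a spindle pole kinase, had a log2 fold change of 1.91, Ube2c and Cdc20, which act in mitotic exit, 1.72 and 1.55, and the kinase gene Melk 1.48. Without knockdown replicate 2, all genes named here from the lists as risen passed too, with log2 fold changes of 0.74 for Cdkn1a to 1.84 for Aurka. Without knockdown replicate 2 all 36 G1/S genes and 30 of the 31 G2/M genes rose, beside 23.8% of all genes, and Cdc25b, a phosphatase gene named after its values were seen, fell. With any 1 control left out, 0 of all tested genes passed, those of the lists included, so this says nothing about the lists. The E2F letters occurred in 36.1% of 36 promoter windows of the G1/S genes and 3.45% of 29 windows of the G2/M genes, and the CHR letters in 11.1 and 69.0%.

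**Figure D5:**
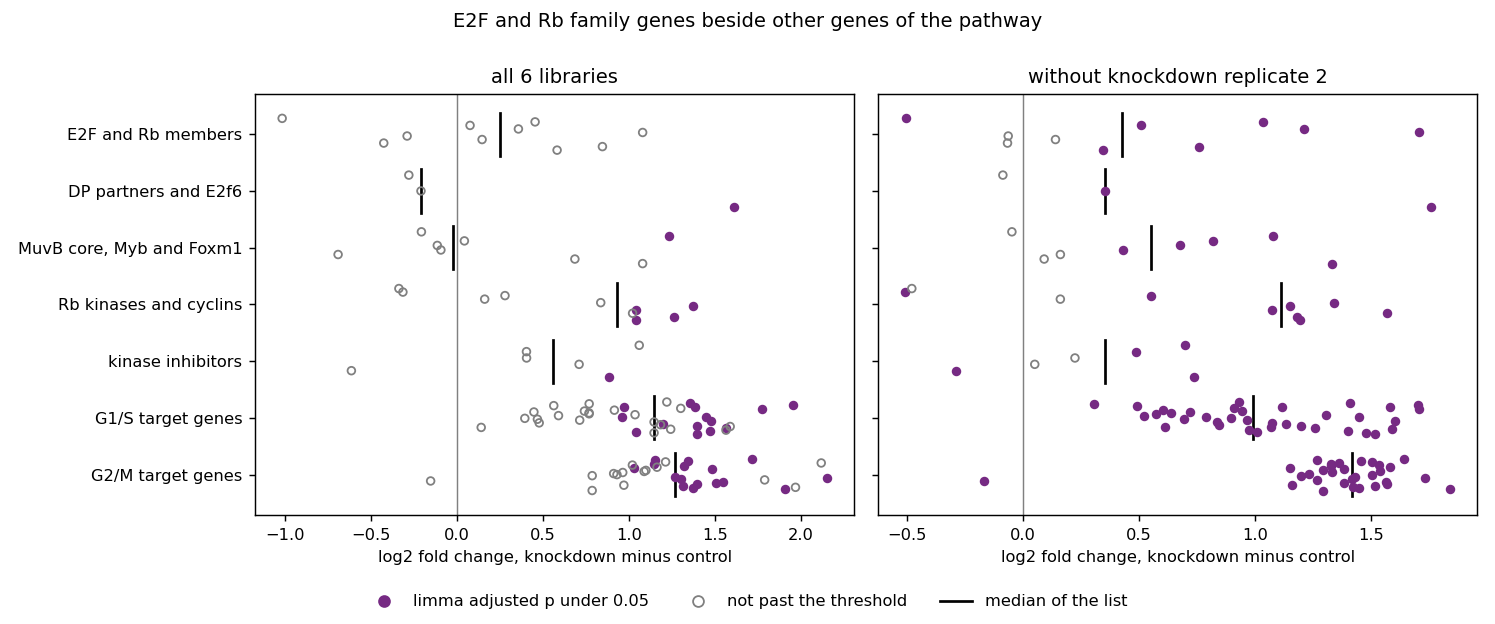
Log2 fold change (x axis, knockdown minus control) of each gene of the E2F and Rb family and of 6 lists of related genes, with all 6 libraries (left) and without knockdown replicate 2 (right). Filled points passed an adjusted p of 0.05 in limma, and black bars are list medians, which with all libraries are 0.25 for the E2F and Rb family, 1.15 for G1/S genes and 1.27 for G2/M genes.

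E2f2 had the smallest adjusted p of the family, and the tested genes closest to it over the 6 libraries were Hirip3, Tmem204 and Map3k14. Likeness was the root mean square difference of log2(value + 1) after centring each gene, 0.051 for Hirip3, 0.073 for Tmem204 and 0.090 for Map3k14. Hirip3, which encodes a partner of the histone chaperone HIRA, stood at 269, 349 and 271 in the knockdowns, against 168, 180 and 147 in the controls. None of the 10 genes was among the 323 of the authors' deposited table of differential genes, whose folds above 1 start at 4.01. From the lists of related genes it holds Tk1, a thymidine kinase gene, and Cenpa, the centromeric histone gene, with folds of 4.07 and 4.97 in the authors' deposited table.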

How the data were processed

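RNA-seq was analysed from 6 libraries, 3 knockdown and 3 control, grouped by the titles in the labels. Libraries of Trizol RNA followed Illumina TruSeq, per the labels' protocols. The submitters' processing notes name RSEM 1.2.12, Bowtie 1.0.0 and the mouse build mm9. Neither annotation nor strand setting is stated, so overlapping genes are uncertain. The authors deposited a normalized signal per gene and library: RSEM estimates, which can split reads between similar genes, divided by a size factor. The authors also deposited a fold ratio for 323 genes. Low values were mostly multiples of 1 step per library (88.5 to 90.4% of values up to 20 reads within 0.1 read). Reads could thus not be recovered whole, count tests were not used, and 3 reads correspond to 0.777 to 12.8 deposited units.

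limma 3.58.1 (R 4.3.3) was fitted to log2(value + 1) of genes whose mean reached 10 (trend and robust options, two-sided, Benjamini-Hochberg over 12085 genes, threshold 0.05), checked on simulated data. The simulation held no library like knockdown replicate 2, so it cannot show how the model behaves with such a library. Lengths are medians of protein-coding transcripts in GENCODE M21 (GRCm38, newer than mm9), and promoters are RefSeq's on GRCm38.p6. Genes named are the 10 members, Rnf2 and Ring1, per list up to 4 genes with the smallest adjusted p, and 3 genes most like the leading member. Values of 1 gene that this rule names are not reported here. Tfdp1, Tk1, Cenpa, Tubb3, Snap25 and the mesenchymal markers were named after their values were seen. Members and lists were chosen with earlier results of these data known. Replicates all differed by more than sampling noise (chi-square per degree of freedom at least 1.51). Alternatives covered pseudocount, filter, scaling, model options, library weights, a replicate block, transcript length and leaving out each library.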

Additional observations from a re-analysis of the deposited data

How the results depend on the processing

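The number of calls was highest with library weights and without knockdown replicate 2. It was 0 without any 1 control and with the replicate number as a block. With all libraries limma called 387 genes higher and 215 lower. With total scaling it called 184 and 116, with the replicate number as a block 0 and 0 (1866 genes at an unadjusted p under 0.05), with library weights, whose estimation stopped short of its tolerance, 4214 and 4596, and with the length correction 537 and 413. Leaving out a library gave 0 to 2855 higher and 0 to 3136 lower, with 0 called when any control was left out. Of the 10 E2F and Rb genes, 1 rose without the trend and robust options, where 440 of all 12085 genes rose and 241 fell. With library weights 7 of the 10 rose and 2 fell (where 72.9% of all genes were called). Among the 10, leaving out a library gave 0 to 6 rises and 0 to 1 falls. Of the related genes 37 rose and 0 fell with all libraries, 14 rose with total scaling, 0 with the block, 86 rose and 4 fell with library weights, and 45 rose and 1 fell with the length correction. Leaving out a library gave 0 to 83 rises and 0 to 3 falls. The log2 fold change of Rnf2 was -2.82 with the block (limma adjusted p = 0.102) and -3.02 to -2.53 without a library. That of Ring1 was -0.999 with total scaling (limma adjusted p = 0.0443), -1.16 with library weights (2.53e-08) and -1.06 to -0.70 without a library. Without a library E2f8 ranged from -0.073 (without knockdown replicate 1; -0.065 without 3) to 1.21, and Rb1 from -0.19 (without knockdown replicate 3; -0.085 without 1) to 0.51; Rb1 also turned with total scaling, to -0.065. The summed canonical repressors turned to a log2 ratio of -0.087, against 0.056 as deposited, with total scaling, which moved the median of all genes to -0.14. The Rbl1 to Rbl2 ratio kept a log2 difference of 1.41 to 1.58 without any 1 library and 1.48 with the length correction. The cause of these changes was not tested. Filter, model and weight settings give no value for summed values.

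Deviations of same-numbered libraries from their group means correlated across genes at 0.17, -0.051 and -0.051, against -0.17 to 0.11 for the other pairs. With 3 libraries per group and knockdown replicate 2 unlike the rest, these values cannot decide whether numbers pair the libraries. With the replicate block 0 of the 10 genes passed, as with all libraries and no block, and since it called 0 of all genes this says nothing about stability. Depth limits E2f2, E2f7 and E2f8 most, with 10, 22 and 11 estimated reads in knockdown replicate 2. Control replicate 2 also limits E2f2, which stood at 22.6 there with 1 read worth 2.51 units.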
